A study of Mus musculus with 21 samples.

Results

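Among 21 RNA-seq libraries of cells sorted for CD31 from mouse mammary tumours, 3 held far less Pecam1, the transcript that encodes CD31, than the others. These 3 libraries were selected on measured Pecam1, with a limit of 600 TPM (length-normalised read counts that sum to 1000000 in each library), whatever their genotype. They are WT replicate 1 of experiment 2, KO replicate 2 of experiment 4 and WT replicate 2 of experiment 4, and they are compared here with the other 18 libraries. Because a gene of the same table chose them, the comparison is a description without a test, and Pecam1 itself is not a finding.

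The study compared wild-type mice (WT) with mice of the Shb iECKO line (KO, Shb flox/flox; Cdh5-CreERt2), in which tamoxifen activates a Cre recombinase driven by the endothelial Cdh5 promoter. Shb encodes an adaptor protein that binds tyrosine kinase receptors. Tamoxifen was injected first, tumours of the line E0771.lmb were then grown in adult mice, and animals were killed between day 14 and day 16. The labels count 11 WT samples from 9 tumours and 10 KO samples from 8 tumours in 4 experiments without saying which of them come from one tumour. The shared protocol text also names a second line, Shb ICKO with Vav1-cre, and a magnetic isolation of CD45+ cells before the CD31 sort. No sample is labelled with that second line. The 18 other libraries are 9 WT and 9 KO. Of these KO libraries, 2 carry one sample's name (replicates 3a and 3b of experiment 2) and are counted separately although they may be repeat runs, or 3b may be KO replicate 3 of experiment 4, which no column names.

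Blood vessel endothelium lines vessels and is recognised by a shared set of transcripts, among them the junction protein VE-cadherin (Cdh5), the VEGF receptors (Kdr, Flt1), the angiopoietin receptors (Tek, Tie1) and the transcription factors Erg and Sox17. In a tumour these cells lie beside tumour epithelial cells, marked by keratins such as Krt8, beside leukocytes, marked by CD45 (Ptprc), and beside fibroblasts, marked by fibrillar collagens such as Col3a1. CD31 is also carried at lower levels by platelets and some leukocytes. A sort on CD31 is meant to enrich the first of these populations over the rest. In bulk RNA, fewer cells of a type and less RNA per cell cannot be told apart.

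Pecam1 stood at 461, 242 and 95.04 TPM in the 3 libraries, in the order of their naming above, which is kept throughout. In the other 18 libraries the lowest value was 710.4 TPM, the median 1265 TPM and the highest 1959.9 TPM. Just above the limit came KO replicate 3a of experiment 2 at 710.4 TPM, followed by WT replicate 2 of experiment 3 at 856 TPM. CD31 is the antigen of the sort, and its transcript was present in every library, although far from evenly.

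**Figure D1:**
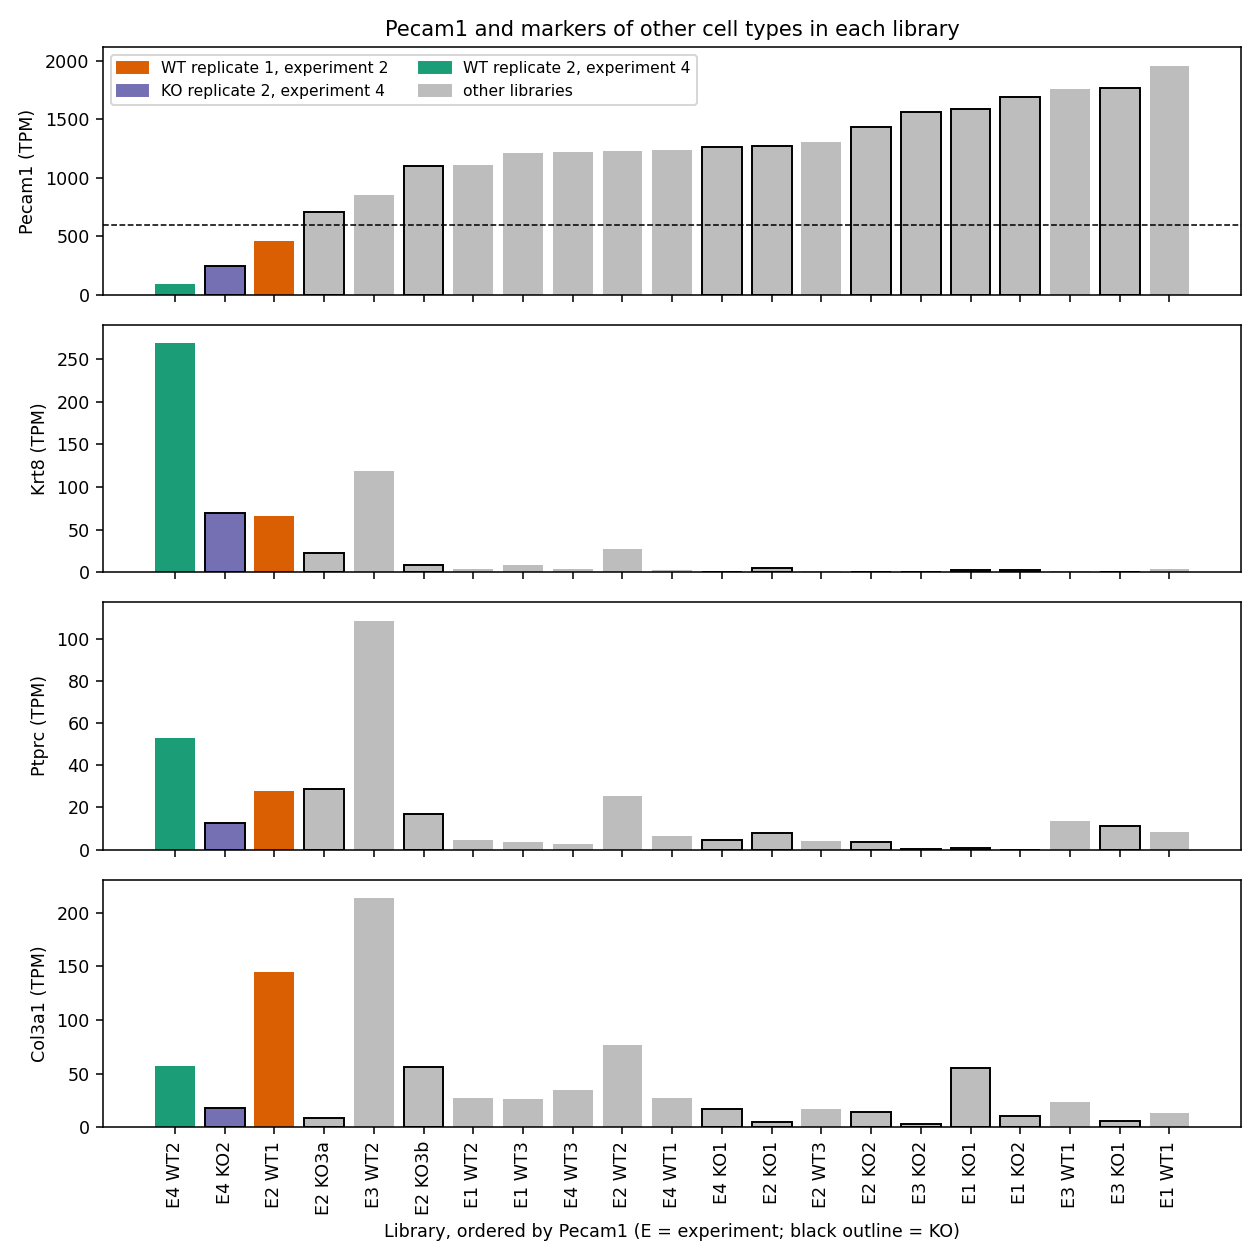
TPM of Pecam1, Krt8, Ptprc and Col3a1 (one panel each, linear axes from 0) in the 21 libraries, ordered from left to right by Pecam1; coloured bars are the 3 low-Pecam1 libraries, grey bars the others, a black outline marks KO, and the dashed line is the 600 TPM limit. Krt8 is high in the 3 coloured bars and in WT replicate 2 of experiment 3 (118 TPM), which also has the highest Ptprc (109 TPM) and Col3a1 (214 TPM) of all libraries.

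The marker genes of other cell types did not move as one. Krt8, a keratin of simple epithelia, read 66.3, 69.4 and 269 TPM in the 3 libraries, against 0 to 118 TPM with a median of 3.28 TPM in the others. Only WT replicate 2 of experiment 3 among the others lay above the lowest of these. Ptprc read 27.7, 12.7 and 52.8 TPM, against 0 to 109 TPM with a median of 5.50 TPM, and Col3a1 read 145, 17.6 and 57.2 TPM, against 2.92 to 214 TPM with a median of 20.0 TPM. Both overlapped the others, and Col3a1 in KO replicate 2 of experiment 4 lay below their median.

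Endothelial transcripts were lower as a group. Of 30 blood vessel endothelial genes, all passed the filter on low values (at least 1 TPM in at least 10 libraries, which no gene can pass through these 3 libraries alone), and in 15 of them all 3 libraries lay below every other library. None lay above. Across all 13503 genes that passed, 3.63% lay below every other library in this way and 0.118% above, 490 and 16 genes. These counts turn on single libraries: 2183 genes lay below without WT replicate 1 of experiment 2, and 28 lay above. Without KO replicate 2 of experiment 4, 165 genes lay above. Leaving out WT replicate 2 of experiment 3 gave 52. Without both columns of the shared name, 1085 genes lay below. Fewer libraries also make the condition easier to meet. The median difference of mean log2(TPM + 1), low minus others, was -2.46 over the 30 genes and -0.66 over all genes, and all 30 differences lay below the median of all genes. Pecam1, which chose the libraries, is itself a gene of these cells, so the direction is tied to the choice.

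How low the endothelial genes were differed among the 3. The summed TPM of the 30 genes was 5844, 2907 and 1015, against 8705 to 23140 with a median of 15518 in the others, which is 37.7%, 18.7% and 6.54% of that median. The order is that of Pecam1. Cdh5 read 330, 308 and 106 TPM against 558 to 2046 TPM. Plvap, which forms the diaphragms of fenestrated vessels, read 535, 335 and 109 TPM against 619 to 4405 TPM, and Eng, a TGF-beta coreceptor, read 327, 155 and 64.7 TPM against 336 to 1511 TPM. Egfl7, a secreted endothelial factor with the highest mean of the list, read 1314, 342 and 114 TPM against 553 to 4097 TPM, so that WT replicate 1 of experiment 2 overlapped the others. None of the 30 genes was at 0 in any of the 3 libraries.

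**Figure D2:**
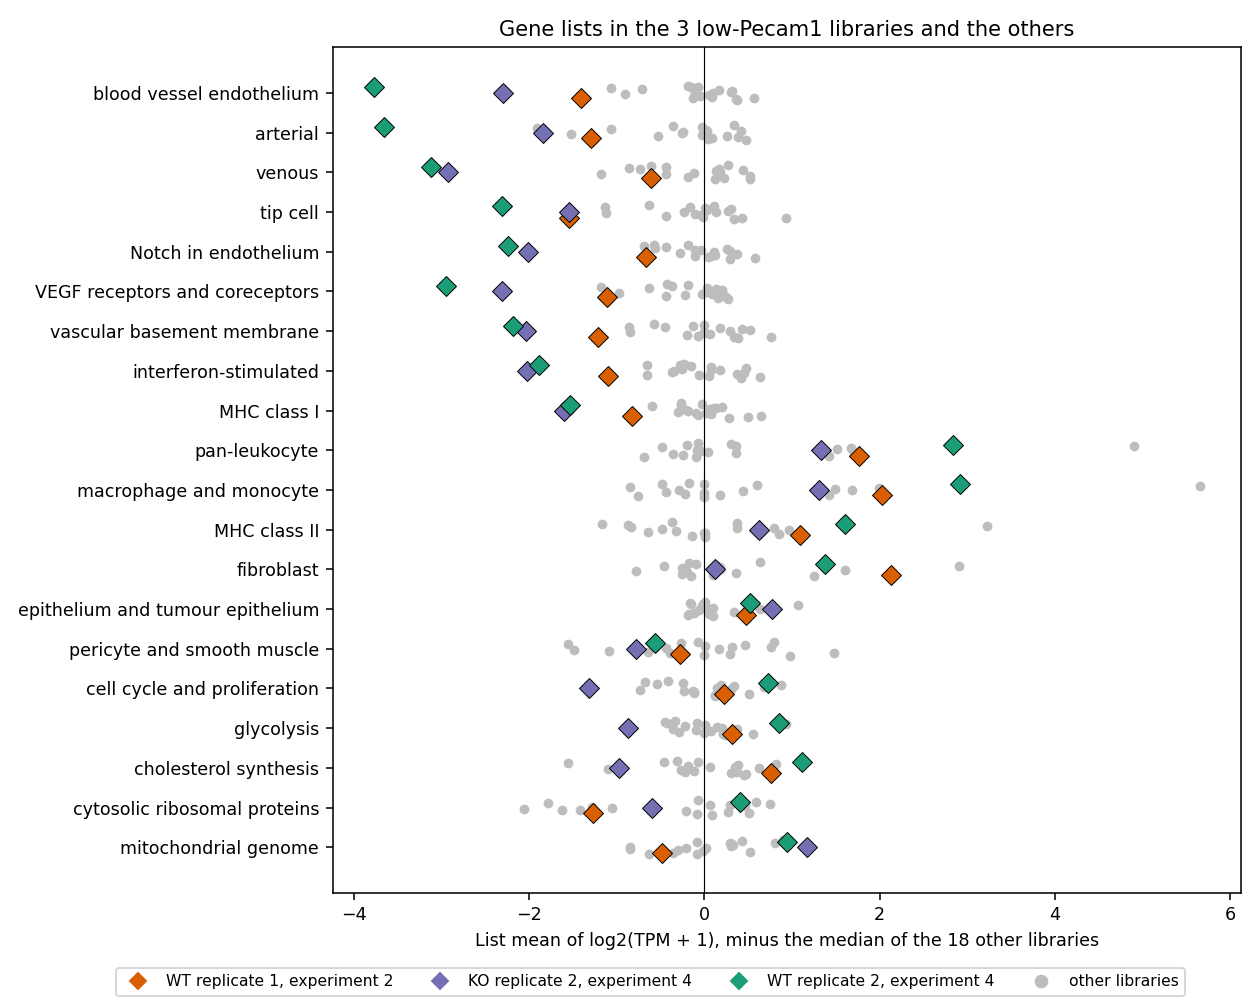
Mean log2(TPM + 1) over all members of each gene list, minus the median of the 18 other libraries (horizontal axis), for 20 lists; grey points are the other libraries and coloured diamonds the 3 low-Pecam1 libraries, spread vertically only for sight. Endothelial, basement membrane, interferon-stimulated and MHC class I lists mostly sit left of the grey points or at their left edge. On the venous and arterial lists WT replicate 1 of experiment 2 lies among the grey points. Pan-leukocyte and macrophage lists sit right of 0 but left of the grey point of WT replicate 2 of experiment 3.

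Genes of vessel subtypes had negative median differences, but few lay below every other library. Among receptors, Flt1 (362, 146 and 55.6 TPM against 489 to 1326 TPM) was the single member of 6 VEGF receptors and coreceptors with all 3 libraries below the others. Kdr, the main signalling receptor for VEGF, read 214, 96.8 and 35.1 TPM against 182 to 666 TPM, an overlap by WT replicate 1 of experiment 2. The medians of the low-minus-others difference were -2.16 for VEGF receptors, -2.46 for 11 arterial genes and -2.27 for 10 venous genes, with 1, 2 and 0 genes below every other library, beside the 3.63% of all genes.

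Tip cell genes, expressed at the front of growing sprouts, had 9 of 15 members below every other library and a median difference of -1.88. They included the basement membrane collagens Col4a1 (861, 562 and 497 TPM against 959 to 4401 TPM) and Col4a2, and the adhesion molecule Mcam (221, 112 and 52.8 TPM against 244 to 1156 TPM). Of 13 vascular basement membrane genes, 7 lay below every other library, with a median difference of -1.86. Sparc, a collagen-binding matrix protein of that list, read 640.1, 569 and 515 TPM against 930.2 to 6544 TPM.

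In the Notch pathway, through which endothelial cells divide into tip and stalk cells, 3 of 9 members that passed lay below every other library. They were the ligand Dll4 (151, 125 and 25.3 TPM against 174 to 523 TPM), the target Hey1 and the feedback inhibitor Nrarp (82.9, 16.1 and 19.0 TPM against 114 to 401 TPM). The receptors Notch1 and Notch4 overlapped the others through WT replicate 1 of experiment 2. Among flow-responsive and vasoactive genes Nos3, the endothelial nitric oxide synthase, read 87.3, 32.7 and 11.6 TPM against 89.0 to 324 TPM. The flow-induced factor Klf2 read 294, 111 and 149 TPM against 96.3 to 386 TPM and stayed within the range of the others in all 3.

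Of 12 capillary and lipid-handling genes, 2 lay below every other library. Within experiment 2, 5 lay below, beside 21.0% of all genes, and within experiment 4, 11 did, beside 32.8% of all genes. Gpihbp1, which anchors lipoprotein lipase to capillaries, lay below every other library at 120.2, 213 and 70.6 TPM against 256 to 1181 TPM. Fabp4, a fatty acid binding protein, read 183, 1054 and 194 TPM against 233 to 2884 TPM, so that the 2 WT libraries lay below all others and KO replicate 2 of experiment 4 did not. Within experiment 4 it too lay below the 3 others, which read 1649 to 2825 TPM. Nrp2, on the venous list and also a coreceptor, read 140.3, 72.04 and 139 TPM against 79.6 to 172 TPM, so that only KO replicate 2 of experiment 4 lay below the others.

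The 12 named genes with the largest deficit among those below every other library reached -3.39 to -2.86 on the log2(TPM + 1) scale. Nostrin, which binds and moves the endothelial nitric oxide synthase, read 8.27, 0 and 2.73 TPM against 14.8 to 58.2 TPM. Stc1, a secreted glycoprotein, read 106, 15.9 and 21.7 TPM against 125 to 486 TPM. Clca2, a regulator of chloride conductance, read 19.8, 4.87 and 4.00 TPM against 40.9 to 132 TPM.

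Others of these 12 are less tied to vessels by name. Chst15 and B4galt4 encode a sulfotransferase and a galactosyltransferase, Scmh1 a Polycomb group protein, Bik a proapoptotic BH3-only protein and Tgtp1 an interferon-inducible GTPase (57.2, 11.1 and 9.16 TPM against 95.4 to 312 TPM). Syt15, Rftn2, Nxpe2 and Tmem252 complete them. In each of the 12, WT replicate 1 of experiment 2 held the highest value of the 3.

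Interferon-stimulated genes, which respond to type I interferon and are expressed by many cell types, were low too. Of 30 members 12 lay below every other library and none above, with a median difference of -1.70, and 29 of the 30 lay below the median of all genes. Zbp1, a sensor of Z-form nucleic acid, read 20.8, 29.6 and 20.5 TPM against 67.1 to 181 TPM, and Xaf1 read 46.3, 14.9 and 22.7 TPM against 89.3 to 222 TPM. These 2 were chosen after their values were seen. Endothelial marker levels moved with this list in the same 3 libraries, and their part in it was not tested.

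Antigen presentation split by class. Of 12 MHC class I genes 3 lay below every other library, with a median difference of -1.28: H2-Q4 read 190, 72.7 and 33.1 TPM against 225 to 441 TPM. B2m, the light chain shared by class I molecules, read 686, 1191 and 1395 TPM against 492 to 7384 TPM. MHC class II genes, carried mainly by professional antigen-presenting cells, had a median difference of 1.27 over the 7 of 10 members that passed, and none lay outside the range of the others. Cd74, the invariant chain, read 249.8, 205 and 453 TPM against 34.4 to 2002 TPM with a median of 70.5 TPM.

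Most leukocyte markers were above the others on average, and none was outside their range in all 3 libraries. The median difference was 1.76 over 19 of 20 pan-leukocyte genes and 1.76 over 19 of 22 macrophage and monocyte genes, and no member of either list lay above or below every other library. Summed TPM of the 20 pan-leukocyte genes was 324, 259.7 and 705 against 157 to 3694 with a median of 222. The highest sum belonged to WT replicate 2 of experiment 3, which has Pecam1 at 856 TPM. For macrophage and monocyte genes the sums were 553, 389 and 1101 against 85.4 to 8594.

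Single macrophage genes differed. Ctss, a lysosomal protease, read 85.2, 92.4 and 187 TPM against a median of 11.3 TPM and a maximum of 1437 TPM. C1qa, a complement subunit made by macrophages, read 45.7, 17.2 and 119 TPM against a median of 4.67 TPM and a maximum of 909 TPM. Apoe, an apolipoprotein of macrophages and other cells, read 77.5, 65.2 and 113 TPM against a median of 66.4 TPM and a maximum of 970 TPM. In experiment 4 both low libraries lay below the 3 others for Apoe (114 to 219 TPM). Of the pan-leukocyte list, Lcp1 (77.4, 38.6 and 80.7 TPM) and Hcls1 (30.9, 13.6 and 21.4 TPM) lay below the medians of the others, 120.1 and 61.4 TPM. In KO replicate 2 of experiment 4 both were under the lowest other library, 44.1 and 20.9 TPM.

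Transcripts of other blood cell types were sparse. T and NK cell genes summed to 11.8, 5.24 and 9.76 TPM, against 20.1 to 90.7 TPM in the others, with 3 of 15 members passing the filter. Cd3d, chosen after its values were seen, was at 0 in all 3 libraries. Lck, a kinase of T cells, was below every other library (6.17, 0 and 2.15 TPM against 6.71 to 79.5 TPM). Neutrophil genes summed to 11.3, 2.45 and 24.4 TPM and B and plasma cell genes to 5.36, 0.534 and 2.94 TPM. Among platelet genes Pf4 read 5.89, 10.7 and 23.8 TPM against 0 to 385 TPM, and erythroid transcripts were led by Hba-a1 in KO replicate 2 of experiment 4 at 183 TPM against 0 to 356 TPM.

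The summed TPM of fibroblast genes was high in the 2 WT libraries and less so in KO replicate 2 of experiment 4, but members differed. The median difference was 1.16 over 12 of 20 members, and no member lay outside the others in all 3 libraries. It was 0.27 without WT replicate 1 of experiment 2 and 2.04 without KO replicate 2 of experiment 4. Summed TPM of the 20 genes was 917, 198 and 1031, against 40.4 to 1129 with a median of 96.1. In WT replicate 2 of experiment 4, Col6a3 alone held 694 TPM of the 1031. Within experiment 4, both low libraries lay above the 3 others in 5 of the 12 members and below them in 3. Of all genes, 5.18% lay above and 32.8% below in this way. Members differed in which of the 3 libraries was high. Col1a1 and Col1a2, the chains of type I collagen, were highest of the 3 in WT replicate 1 of experiment 2. Col1a1 read 119, 3.18 and 16.4 TPM, and Col1a2 read 85.4, 7.02 and 11.1 TPM. The medians of the others were 7.68 and 5.50 TPM, and WT replicate 2 of experiment 3 was higher still at 183 and 114 TPM. Col1a2 was chosen after its values were seen.

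Col6a3, a chain of type VI collagen, behaved otherwise. It read 352, 112 and 694 TPM against 4.69 to 216 TPM with a median of 15.0 TPM, 23.5, 7.45 and 46.3 times that median. The receptor Pdgfra, chosen after its values were seen, read 26.3, 10.2 and 49.8 TPM against 0 to 17.8 TPM. In both, the 2 WT libraries lay above all others and KO replicate 2 of experiment 4 did not. The matrix proteoglycan genes Dcn and Lum, also chosen after their values were seen, were near or at 0 in the pair of experiment 4. Dcn read 5.21, 0 and 0.966 TPM, and Lum read 1.24, 0 and 0.0886 TPM.

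Epithelial genes differed from library to library. Only 5 of 30 members passed the filter, so a list median says little (-0.87), and it turned positive under filters that keep other members (1.19 where the mean must reach 1 TPM) and in 10 of the 21 runs that left out 1 library. Of these 5, the difference was negative in 3 and positive in 2. Spint2, a protease inhibitor, read 26.2, 1.91 and 3.43 TPM against 21.5 to 88.7 TPM. Sfn read 7.87, 8.76 and 2.88 TPM against 2.07 to 22.9 TPM with a median of 13.6 TPM. Summed TPM of the 30 was 144, 185 and 392, against 56.6 to 269 with a median of 88.1 in the others. In WT replicate 2 of experiment 4, Krt8 made up most of the sum, with Wfdc2, a secreted epithelial protease inhibitor, at 80.7 TPM. Krt18, the usual partner of Krt8 in simple epithelia, was at 0 in that library, as were Krt19 and Epcam.

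KO replicate 2 of experiment 4 showed another set. There Krt18 read 23.7 TPM, Krt19 27.9 TPM and the adhesion molecule Epcam 16.0 TPM, against maxima of 2.02, 4.31 and 1.25 TPM over the 18 other libraries. In WT replicate 1 of experiment 2 they read 0.71, 1.15 and 0.46 TPM. Lgals7, a galectin of stratified epithelia, read 10.6 and 23.1 TPM in the 2 WT libraries, 0 in KO replicate 2 of experiment 4 and at most 7.80 TPM in the others. These 4 genes were chosen after their values were seen. Krt5, Krt15 and Cldn7, chosen in the same way, were at 0 in all 3 libraries.

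**Figure D3:**
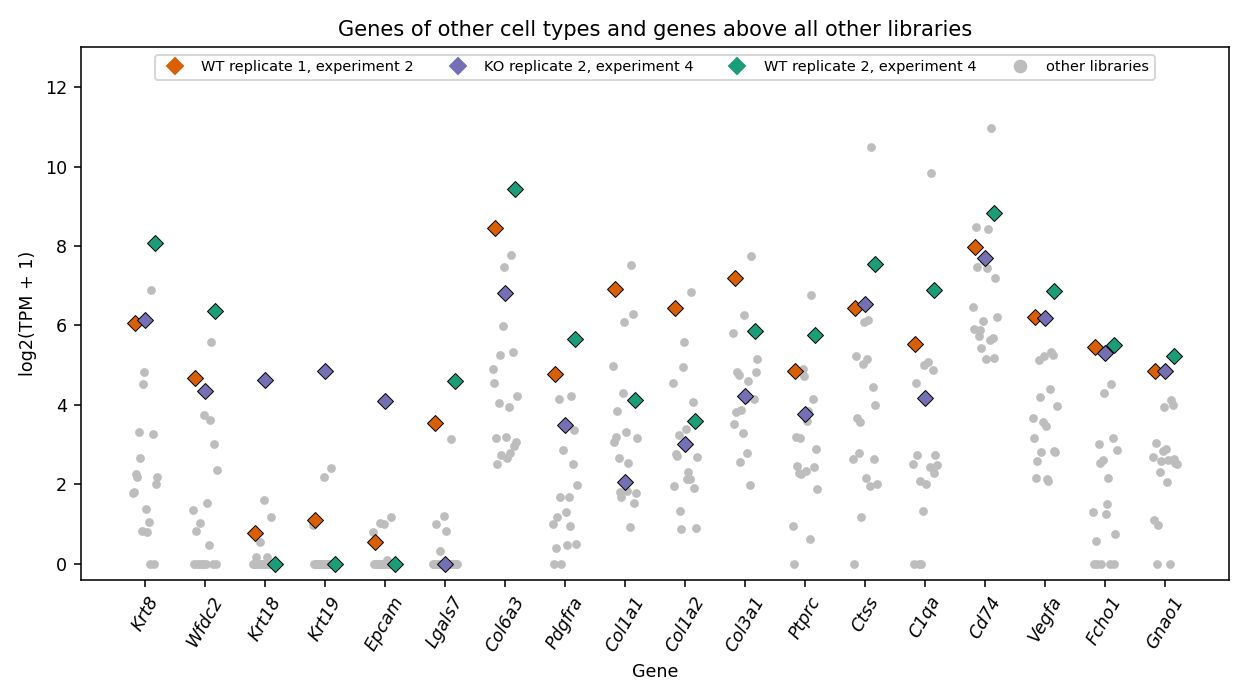
Level of 18 genes on a log2(TPM + 1) axis; grey points are the 18 other libraries and coloured diamonds the 3 low-Pecam1 libraries. Krt18, Krt19 and Epcam are high in KO replicate 2 of experiment 4 alone, Col1a1 and Col1a2 are higher in WT replicate 1 of experiment 2 than in the pair of experiment 4, and Vegfa, Fcho1 and Gnao1 lie above all grey points in all 3.

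Few genes lay above every other library in all 3. Of the 16, 11 met the conditions for naming (an average log2(TPM + 1) no lower than 2, a like sign in experiments 2 and 4, and no predicted gene model). Vegfa, the ligand of the VEGF receptors described above, read 73.3, 72.0 and 115 TPM against 3.23 to 39.2 TPM with a median of 10.5 TPM, a log2(TPM + 1) difference of 2.82. Its levels in the 3 libraries were 6.96, 6.84 and 11.0 times that median, while Flt1 and Kdr were low in the same libraries. Vegfa (ENSMUSG00000023951) occupies chromosome 17, positions 46016993 to 46032369 of GRCm38, minus strand.

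Fcho1, an initiator of clathrin-mediated endocytosis, had the largest difference at 3.72 and read 42.6, 38.5 and 44.3 TPM against 0 to 21.9 TPM with a median of 1.66 TPM. Gnao1, a G protein alpha subunit, read 28.1, 27.9 and 36.4 TPM against 0 to 16.5 TPM. Tubg1, the gamma-tubulin of centrosomes, read 76.0, 54.1 and 88.4 TPM against 8.70 to 45.0 TPM. The secreted semaphorin Sema3b, the autophagy gene Atg9b, the folate carrier Slc19a1, Ahnak2, the spindle-associated Troap and a noncoding transcript, RP23-110C17.2, were also among them.

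In Fcho1 the 3 libraries lay close together although Pecam1 in them differed widely. The highest of the other libraries was WT replicate 2 of experiment 3 for Fcho1, Vegfa and Gnao1. The remaining 5 of the 16 genes were Runx2, Meis2, Arhgef25, Pyroxd2 and 9330159M07Rik, named after their values were seen. Of 14 hypoxia response genes that passed, Vegfa was the 1 member above every other library, and the list's median difference was -0.04. Egln3, a hypoxia-induced hydroxylase, read 33.0, 13.7 and 95.9 TPM against 1.49 to 38.0 TPM. Egln3 was chosen after its values were seen.

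The 3 libraries also stood out in composition, which bears on every TPM value since each library sums to the same total. Protein-coding genes of the nuclear genome took 44.2%, 22.6% and 42.9% of the TPM, against 47.2% to 80.01% in the others. In WT replicate 1 of experiment 2 a single gene, Gm26917, took 35.9%, against 1.98% to 17.2% in the others. Gm26917 is annotated as a long noncoding RNA on chromosome 17 from 39843013 to 39846341 on the plus strand, and Yam1, another noncoding transcript, took a further 6.62% there. Both were chosen after their values were seen.

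In the pair of experiment 4, genes of the mitochondrial genome took 23.01% (KO replicate 2) and 17.7% (WT replicate 2), against 1.40% to 17.2% in the other 18 and 1.27% in WT replicate 1 of experiment 2. Rn7s1, an RNA of the signal recognition particle, was the highest gene in both, as it was in every other library of experiment 4. It read 186252 TPM in KO replicate 2 and 96514 TPM in WT replicate 2, against 59606.5 to 164580 TPM in the others of that experiment. In that library the 20 highest genes took 71.1% of the TPM and 4695 of 13503 genes had their lowest value of all 21 libraries. The median log2(TPM + 1) over the genes that passed was 4.09, 2.95 and 3.81 in the 3 libraries, against 3.85 to 4.54 in the others.

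**Figure D4:**
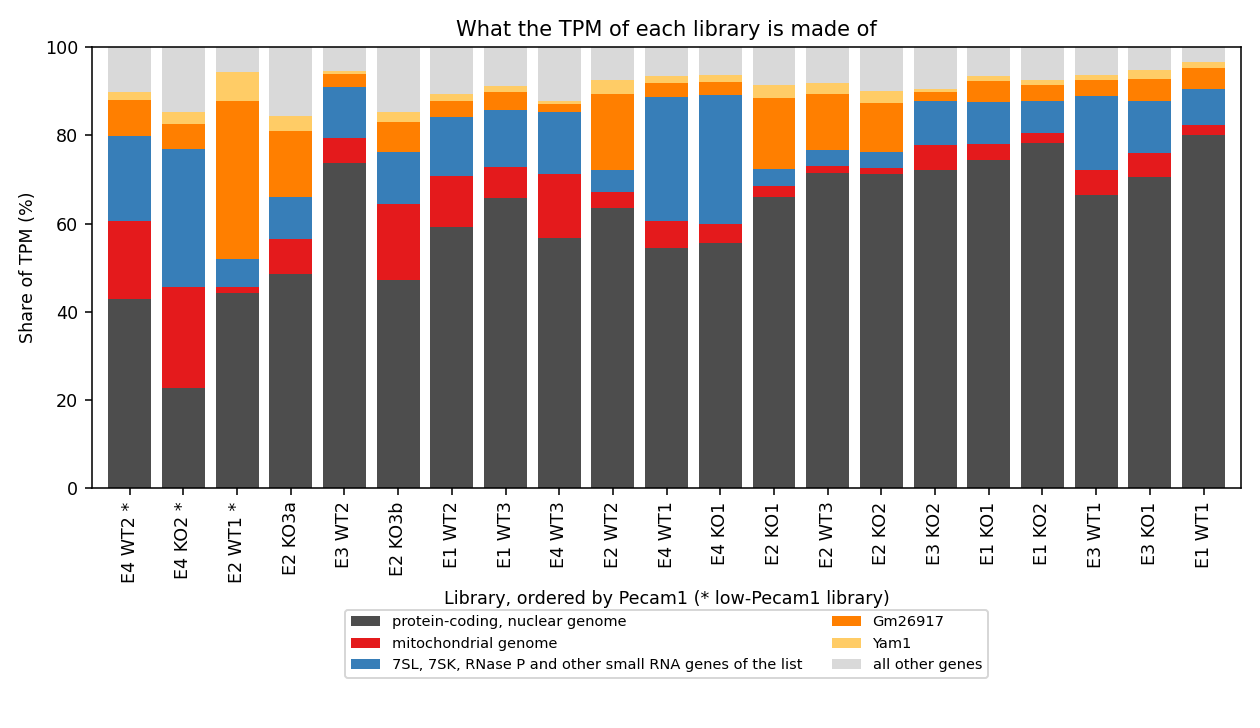
Share of each library's TPM (vertical axis, %) taken by nuclear protein-coding genes, the mitochondrial genome, small RNA genes, Gm26917, Yam1 and all other genes, as stacked bars ordered by Pecam1; an asterisk marks the 3 low-Pecam1 libraries. Their dark bars (44.2%, 22.6% and 42.9%) are the shortest of all; Gm26917 is the largest other share in the library of experiment 2, and small RNA and the mitochondrial genome are the largest in the pair of experiment 4.

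Differences are therefore also given relative to the median of all genes, -0.66. With libraries shifted to a common median of log2(TPM + 1), 234 genes lay below every other library and 158 above, 1.73% and 1.17% of those tested, beside 490 and 16 on the scale as deposited. On this scale 8 of 30 endothelial genes, 5 of 30 interferon-stimulated genes, 2 of 12 MHC class I genes and 2 of 15 tip cell genes lay below every other library. Of the 12 capillary and lipid-handling genes, 0 did. Relative to all genes the endothelial median was -1.80, that of interferon-stimulated genes -1.04, that of pan-leukocyte genes 2.41 and that of fibroblast genes 1.82.

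Several groups changed sign with this scaling. Raw medians of -0.17 for 30 cell cycle genes, -0.05 for 19 glycolysis genes, -0.04 for 14 hypoxia response genes, -0.51 for 30 nuclear-encoded oxidative phosphorylation genes and -0.12 for 83 cytosolic ribosomal protein genes became 0.49, 0.61, 0.61, 0.15 and 0.54 relative to all genes. Cholesterol synthesis genes had a median of 0.25 raw, or -0.14 without WT replicate 2 of experiment 4 and 0.98 without KO replicate 2 of experiment 4, and 0.91 relative. They differed among the 3: Sqle, an enzyme of that pathway chosen after its values were seen, read 39.9, 11.4 and 61.5 TPM against 0 to 35.3 TPM. Gapdh read 1043, 802 and 2616 TPM against 470.5 to 3574 TPM.

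Ratios of summed TPM within a library do not depend on its scaling. The 30 endothelial genes together held 18.0, 11.2 and 1.44 times the TPM of the 20 pan-leukocyte genes, against a median of 66.5 times in the others. WT replicate 2 of experiment 3 held 2.63 times and was the only other library under 18.0. Against the 88 cytosolic ribosomal protein genes the ratios were 0.373, 0.110 and 0.0179. The others had a median of 0.421 and a range of 0.141 to 1.39. WT replicate 1 of experiment 2 lay inside that range and the pair of experiment 4 below it. Ribosomal sums of the others differed by experiment, at 10589 to 17992 TPM in experiment 2 and 38117 to 64571 TPM in experiment 4. In experiment 2 the low library held 5844 TPM of endothelial and 15663 TPM of ribosomal genes. The others there held 8705 to 17089 TPM of endothelial genes. Its ratio therefore lay below that of every other library of experiment 2.

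Within experiments, the comparison used 1 low library against 6 others in experiment 2 and 2 against 3 in experiment 4. In experiment 2, 2832 genes (21.0%) lay below and 1015 (7.52%) above all 6 others. In experiment 4, 4425 genes (32.8%) lay below and 699 (5.18%) above all 3 others. Genes below in both numbered 1669, which is 58.9% of those in experiment 2 and 37.7% of those in experiment 4. Genes above in both numbered 310, or 30.5% and 44.3%. Of the 30 endothelial genes 21 lay below all others in experiment 2 and 30 in experiment 4, and of the 30 interferon-stimulated genes 25 and 26.

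Some lists differed between the experiments in size or sign. The tip cell median difference was -1.18 in experiment 2 and -2.12 in experiment 4, and the arterial one -0.69 and -3.03, beside all-gene medians of -0.22 and -0.62. The venous median was -0.21 in experiment 2, near that of all genes, and -2.83 in experiment 4: Selp, the adhesion receptor P-selectin, read 125, 10.4 and 3.18 TPM, against 46.8 to 478 TPM. Fibroblast genes stood at 2.83 and 0.63, pericyte and smooth muscle genes at 0.78 and -1.37, and genes of the mitochondrial genome at -1.44 and 1.32. These differences between experiments were not tested. The experiments also differ in genotype, since the low library of experiment 2 is WT and experiment 4 holds 1 of each.

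**Figure D5:**
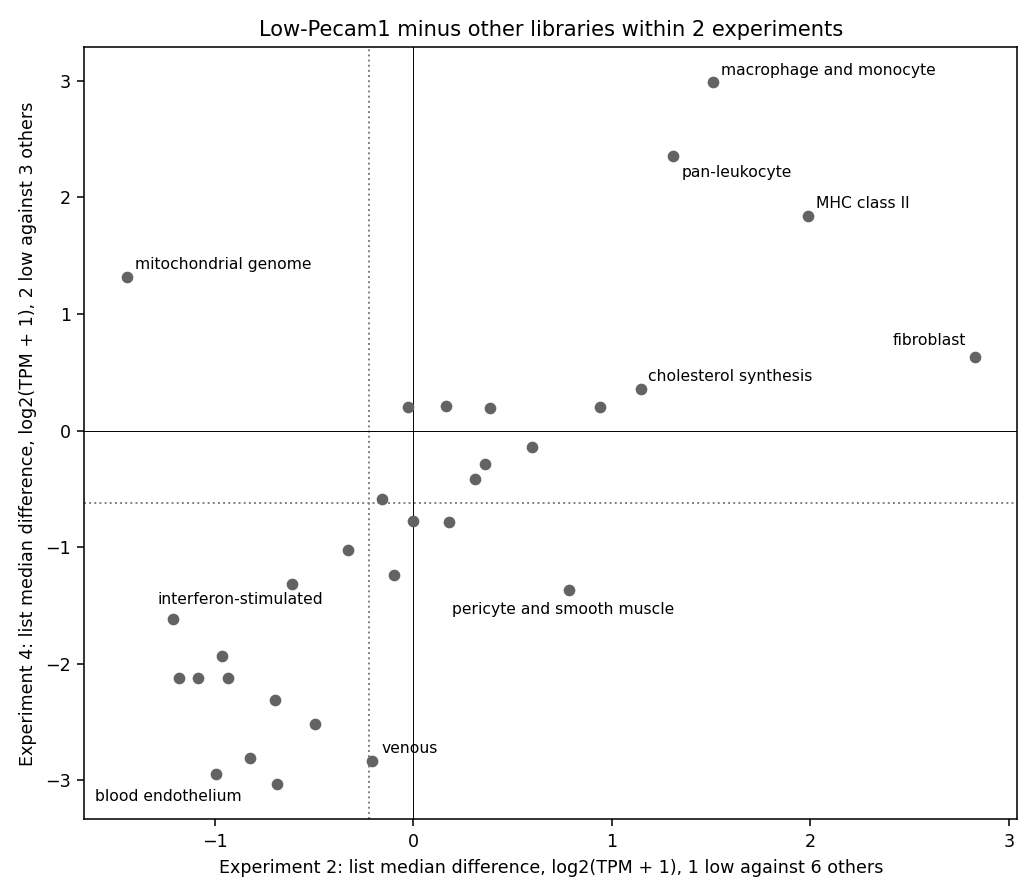
Each point is a gene list with at least 6 members that passed the filter: its median difference in log2(TPM + 1), low minus others, within experiment 2 (horizontal axis) and experiment 4 (vertical axis); dotted lines are the medians of all genes. Leukocyte lists lie at the upper right, endothelial lists at the lower left, and the mitochondrial genome (-1.44 and 1.32) and pericyte genes (0.78 and -1.37) lie on opposite sides of 0.

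The libraries differed from each other as well. Over the genes that passed, the Pearson correlation of log2(TPM + 1) among the 3 ran from 0.804 to 0.837. WT replicate 2 of experiment 4 correlated at 0.743 to 0.751 with the 3 others of its experiment, which correlated among themselves at 0.883 to 0.893. In experiment 2 the others ran from 0.754 to 0.960 among themselves, a range that holds the values among the 3. WT replicate 1 of experiment 2 correlated at up to 0.946 with an other library of its experiment. These correlations are across genes and share composition, so they carry no test. WT replicate 2 of experiment 4 was the highest of all 21 libraries for 477 genes, fewer than the median of 627 in the others (79 to 2061). Among the 477 were Pthlh, a secreted hormone-like protein (53.7 TPM, at most 11.7 TPM elsewhere), and the secreted pentraxin Nptx1 (57.6 TPM, at most 18.5 TPM elsewhere), both chosen after their values were seen.

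Genotype, a label that the choice did not use, was then compared with and without the 3 libraries. With all 21 libraries, limma with an experiment term called 1 of 13503 genes (0.00741%) at a Benjamini-Hochberg adjusted p under 0.05. An unadjusted p under 0.05 was found for 794 genes, 5.88% of those tested. Without the 3 libraries it called 1 of 13049 (0.00766%), and 471 genes (3.61%) had an unadjusted p under 0.05. Of these 471, 307 were also among those with all libraries. The called gene was Hist1h4m, a histone H4 gene, in both fits.

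Hist1h4m lay outside the range of the same genotype in both libraries of experiment 4. It read 0 to 2.52 TPM in the 9 other KO libraries and 66.6 TPM in KO replicate 2 of experiment 4. In the 9 other WT libraries it read 30.2 to 138 TPM, and the low-Pecam1 WT libraries had 39.8 and 17.3 TPM. The KO-minus-WT difference was -4.71 (SE 0.58, limma adjusted p = 0.00044) with all libraries and -5.58 (SE 0.37, limma adjusted p = 6.13e-08) without the 3. It occupies chromosome 13, positions 21811746 to 21812147 of GRCm38, plus strand, and is one of the near-identical histone H4 genes whose reads could be split, so its value is uncertain.

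Shb, the targeted gene, read 7.99 TPM in KO replicate 2 of experiment 4 and 40.7 and 23.4 TPM in the 2 WT libraries. The other KO libraries ran from 6.00 to 52.7 TPM and the other WT libraries from 17.3 to 74.3 TPM, so all 3 lay within the range of their genotype. The experiment-adjusted log2 difference was -0.91 with all libraries (two-sided exact permutation within experiments, p = 0.0223) and -0.82 without the 3 (exact p = 0.0748). The first passes the threshold of 0.05 and the second does not, over 21000 and 2700 arrangements. The call was also lost without both columns of the shared name (-0.71, exact p = 0.0688) and held with 3b placed in experiment 4 (-0.83, exact p = 0.0272). Reads from exons that Cre leaves in place also enter the Shb value.

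Leaving the 3 libraries out moved list medians of the KO-minus-WT difference toward 0 for several groups. The median of all genes went from -0.11 to -0.03, that of endothelial genes from 0.15 to 0.02, that of oxidative phosphorylation genes from -0.36 to -0.26 and that of glycolysis genes from -0.35 to -0.11. For pan-leukocyte genes it was -1.20 with and -1.32 without, for macrophage genes -1.34 and -1.42 (19 and 14 pan-leukocyte and 19 and 16 macrophage genes, since the filter was applied anew), and for interferon-stimulated genes 0.43 and 0.41. No member of these lists passed the adjusted threshold in either fit.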

How the data were processed

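The authors' deposited table gives TPM for 45706 Ensembl genes in 21 columns. TPM keeps no read depth, so no counting interval is given. Coordinates are those of GRCm38, the build named in the submitters' processing notes; no aligner or counter is named in what was used here. Per the labels' protocols, libraries were stranded total RNA depleted of ribosomal RNA. Names that had turned into dates (27) were restored from their Ensembl identifiers, and 45143 identifiers were found in GENCODE.

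Columns were matched to sample titles. A pair of columns shares the header of KO replicate 3 of experiment 2; they are called 3a and 3b and counted as 2 libraries, although they may be one sample. No column names KO replicate 3 of experiment 4, so whether 3b is that sample is unknown.

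Genes reaching 1 TPM in 10 or more libraries were tested (13503), on log2(TPM + 1), which understates changes of low genes. A gene counted as lower or higher where all 3 low-Pecam1 libraries lay outside every other library. KO and WT were compared with limma 3.58.1 (trended, robust, experiment term; statmod 1.5.0, R 4.3.3), whose use was tested on simulated data, and for Shb with an exact permutation test. Some samples share a tumour, and p-values measure the spread between samples only.

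The libraries, gene lists and rules were chosen with earlier results of these data known. Named are the markers, Shb, up to 12 genes per direction with the largest difference, up to 4 members per list with the highest mean TPM, and genes past the limma threshold. Others are said to be chosen after their values were seen. Some genes that the rule names are not reported here. Further list medians of the difference were: lymphatic endothelial -0.67, dendritic -1.38, adipocyte -0.27, skeletal muscle -0.54, erythroid -0.95, platelet 0.32, neutrophil 0.30, immediate early -0.91, junction -1.60, p53 target -0.76, noncoding RNA 0.20, invasion -0.36, SHB partner -1.01 and histone genes 0.00.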

Additional observations from a re-analysis of the deposited data

Results flagged for a closer look

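Only KO libraries were checked: all 10, and the 4 of experiment 2, each for every list, Krt8, Ptprc, Col3a1 and Shb. Of these 88 sets, 7 held a library far from the rest. A rate of about 1 in 20 by chance would hold for separate sets, but these share libraries and genes. The 7 are therefore not set against it. All 7 arose in sets of all 10 KO libraries and say nothing about WT libraries. The values are means of log2(TPM + 1) over a list. The low-Pecam1 library KO replicate 2 of experiment 4 was far below the other 9 in 4 lists. It stood at 3.95 for Notch genes (5.27 to 6.54 in the rest), at 3.92 for venous genes (5.68 to 7.37), at 6.37 for MHC class I genes (7.38 to 8.47) and at 3.96 for interferon-stimulated genes (5.61 to 6.61). The same library had the lowest share of nuclear protein-coding TPM, and the part of that share in these values was not tested. It was also chosen for low Pecam1, so its place in these lists is not free of that choice and carries no test.

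The other 3 values belong to libraries above the Pecam1 limit. Fibroblast genes stood at 2.95 in KO replicate 1 of experiment 1 (0.92 to 1.83 in the rest). Neutrophil genes stood at 1.00 in KO replicate 1 of experiment 3 (0 to 0.34), and B and plasma cell genes at 0.62 in KO replicate 1 of experiment 2 (0 to 0.33).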

How the results depend on the processing

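The count of genes below every other library (490) was 234 with a common median, 2125 with a limit of 300 TPM for Pecam1, 1669 within experiments 2 and 4, 1502 in WT libraries alone, 1085 without the columns that share a header and 93 when rescaled also without Gm26917 and Yam1. The count above (16) was 34 with a filter on the mean, 70 without a filter, 158 with a common median, 51 when rescaled without mitochondrial and small RNA genes, 310 within experiments 2 and 4, 314 in WT libraries alone, 138 when rescaled also without Gm26917 and Yam1 and 52 without WT replicate 2 of experiment 3. The last 2 settings were chosen after seeing the data. Leaving out each library in turn gave 490 to 2183 below and 15 to 165 above. With fewer libraries the condition is easier to meet. Counts from such settings therefore tend to rise by construction.

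The endothelial median was -1.82 with a common median, -2.95 at 300 TPM and -1.84 when rescaled also without Gm26917 and Yam1, and -3.02 to -1.82 when leaving out each library. The fibroblast median was 0.19 at 300 TPM and 0.27 to 2.04 when leaving out each library. The epithelial median was 1.19 with a filter on the mean, 0.25 without a filter, -0.23 with a common median, -0.47 within experiments and -0.29 when rescaled also without Gm26917 and Yam1, and -0.92 to 1.56 when leaving out each library, positive in 10 of 21, and rests on few members.

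Signs also turned for other lists. Cholesterol genes stood at -0.14 without WT replicate 2 of experiment 4, and dendritic genes at 0.034 without a filter. Erythroid genes stood at 0.11 at 300 TPM, and at -1.57 to 0.047 when leaving out each library. Skeletal muscle genes stood at 0.036 without a filter and 0.10 with a common median, and at -1.45 to 0.027 when leaving out each library. The mitochondrial genome stood at -0.078 within experiments and -0.074 in WT alone. Settings other than leaving out each library gave -1.19 to 0.38 for adipocyte genes and -0.42 to 0.96 for platelet genes. They gave -0.31 to 0.84 for noncoding RNA and -0.78 to 0.29 for invasion genes. Cell cycle, glycolysis, hypoxia response, ribosomal protein, oxidative phosphorylation and histone medians also took both signs. The cause was not tested.

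KO against WT gave 1 gene with column 3b placed in experiment 4 (973 at an unadjusted p under 0.05; chosen after seeing the data), 2 genes with a common median and 0 with the replicate block (limma; 1017 genes at an unadjusted p under 0.05). Shb was -0.82 without the low-Pecam1 libraries, -0.77 with the replicate block and -0.71 without the columns that share a header, with exact permutation p-values of 0.0748, 0.112 and 0.0688. Over 10 pairs, same-numbered deviations correlated at -0.20 to 0.36, with 2 over 0.1. Both of these lay in experiment 4, at 0.32 for replicate 1 and 0.36 for replicate 2, the low-Pecam1 pair. In a group of 2 libraries the deviations mirror each other, so these values cannot decide whether replicate numbers pair the samples.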
